A study of Mus musculus with 6 samples.

Results

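The transcripts examined here encode the glycolytic pathway and the transcriptional response to low oxygen, 34 genes in all. They were chosen by name: every row of the deposited count table whose gene name was on a list of 20 glycolytic genes or 14 hypoxia genes was taken, 34 of 56953 genes. The glycolytic genes comprised 15 enzymes (Hk1, Hk2, Gpi1, Pfkl, Pfkm, Pfkp, Aldoa, Tpi1, Gapdh, Pgk1, Pgam1, Eno1, Pkm, Ldha and Ldhb) and 5 genes of transport and control (Slc2a1, Slc16a3, Pdk1, Pfkfb3 and Pfkfb4). The hypoxia genes were Hif1a, Vegfa, Bnip3, Ankrd37, Egln1, Egln3, Car9, Ndrg1, Ero1a, P4ha1, P4ha2, Ddit4, Kdm3a and Higd1a. Aldoa had a further row under its name with 0 to 5 counts per library, which was not used.

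Bulk RNA-seq was performed on day 3 of a culture assay of acinar-to-ductal metaplasia (ADM), in which primary acini, the groups of pancreatic cells that make digestive enzymes, take on duct-like features outside the body. The 3 groups of 2 libraries were wild-type acini with no treatment (WT, mice of 10 and 11 weeks), acini of mice homozygous for a ubiquitous Dkk3 null allele with no treatment (DD, 12 and 13 weeks) and DD acini given recombinant soluble DKK3 (DD + rDKK3, 14 and 15 weeks). Acini of every group were embedded in Matrigel and kept in the same medium with serum, trypsin inhibitor and dexamethasone, a glucocorticoid. The labels do not state whether the 2 libraries of a group came from separate animals, so p-values measure only the spread between these samples, and by the labelled ages, age and group cannot be told apart.

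Glycolysis converts glucose to pyruvate in the cytosol with a small net gain of ATP, and lactate dehydrogenase turns pyruvate into lactate, which renews the cofactor that the pathway consumes. The response to low oxygen runs through the transcription factor subunit HIF1A. In oxygen, prolyl hydroxylases of the EGLN family mark HIF1A for destruction, and without oxygen it accumulates, pairs with ARNT and activates genes that carry the hypoxia response element, among them most glycolytic enzymes. HIF1A is controlled mainly as a protein, so the level of its message does not report its activity.

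Depth and library quality were compared first. The libraries held 12018473 to 19750401 counts each. Dkk3 itself had between 1 and 11 counts in each of the 6 libraries, and since a count over the whole gene does not isolate the deleted exon, it does not check the labels. WT 2, the only library labelled female, had 16 Xist counts where the others had 0, yet its 4 genes of the Y chromosome (Eif2s3y, Ddx3y, Kdm5d and Uty) summed to 141 CPM (counts scaled to a common library total) against 119 to 147 across all 6 libraries. The 14 acinar markers took 9.17% to 12.8% of all counts and 0 of them was at 0 in any library. The 16 fibroblast and stellate markers summed to 1430 CPM in DD 2 and 1461 in DD + rDKK3 2 against 197 to 331 in the other 4 libraries, with 0 of the 16 at 0 anywhere. The 10 macrophage markers summed to 134 and 58.9 CPM in WT, 71.1 and 260.2 in DD, then 87.5 and 201 in DD + rDKK3, and 1 of them was at 0 in WT 2. In bulk RNA, fewer cells of a type and less RNA per cell cannot be told apart.

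The core letters of the hypoxia response element were located in the promoters of these genes, because HIF1A activates genes that carry that element. The members were chosen by name and not by a motif search. They were listed as genes of glycolysis and of the response to low oxygen, which runs through HIF1A. The motif shares are therefore not independent of that choice. The motifs searched were ACGTG and GCGTG on both strands, in windows from 250 bases before to 50 bases after each RefSeq transcription start (build GRCm38.p6). Windows existed for 33 of the 34 genes, 48 windows in all, and Ndrg1 had none. Every one of the 48 was found at 1 place on its chromosome in GRCm39 by exact match, which gave the positions below. A window holding CACGTG counts as holding ACGTG on either strand. ACGTG was present in 27 of 48 member windows (56.2%) and in 19.6% of 32851 windows of all genes. GCGTG was present in 27 of 48 (56.2%) and in 32.4% of all windows. At least 1 of the motifs occurred in 25 of 32 glycolytic windows (78.1%), 13 of 16 hypoxia windows (81.2%) and 43.8% of all windows. Member windows were also richer in G and C, with a median of 64% against 52.7%, and the part of base composition in these shares was not tested. Several windows belong to the same gene and overlap, so they are not independent.

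Windows are given for the 6 genes on which the comparisons below turn, 5′ to 3′ along the gene, with the motifs in capitals. They are Hk1 (chr10:62176151-62176450, minus strand), Slc2a1 (chr4:118965692-118965991, plus strand), Pgk1 (chrX:105230456-105230755, plus strand), Bnip3 (chr7:138511186-138511485, minus strand), Egln3 (chr12:54250611-54250910, minus strand) and Car9 (chr4:43506776-43507075, plus strand).
Hk1: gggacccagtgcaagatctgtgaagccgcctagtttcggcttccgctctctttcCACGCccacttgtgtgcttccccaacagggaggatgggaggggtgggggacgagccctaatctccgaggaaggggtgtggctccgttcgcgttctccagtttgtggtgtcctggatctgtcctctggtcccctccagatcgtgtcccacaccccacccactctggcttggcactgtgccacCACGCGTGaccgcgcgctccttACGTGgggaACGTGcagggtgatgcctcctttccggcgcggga
Slc2a1: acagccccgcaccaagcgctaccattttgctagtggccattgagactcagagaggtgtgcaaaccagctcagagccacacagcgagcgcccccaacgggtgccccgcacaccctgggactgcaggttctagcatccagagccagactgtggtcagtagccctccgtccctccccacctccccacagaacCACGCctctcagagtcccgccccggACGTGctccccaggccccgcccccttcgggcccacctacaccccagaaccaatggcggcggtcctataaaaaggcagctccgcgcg
Pgk1: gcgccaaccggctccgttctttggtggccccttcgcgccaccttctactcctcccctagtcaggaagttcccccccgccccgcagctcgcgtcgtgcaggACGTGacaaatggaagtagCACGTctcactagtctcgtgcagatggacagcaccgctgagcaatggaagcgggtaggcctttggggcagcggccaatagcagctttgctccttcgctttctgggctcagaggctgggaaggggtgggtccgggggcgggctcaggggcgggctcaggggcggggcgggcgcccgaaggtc
Bnip3: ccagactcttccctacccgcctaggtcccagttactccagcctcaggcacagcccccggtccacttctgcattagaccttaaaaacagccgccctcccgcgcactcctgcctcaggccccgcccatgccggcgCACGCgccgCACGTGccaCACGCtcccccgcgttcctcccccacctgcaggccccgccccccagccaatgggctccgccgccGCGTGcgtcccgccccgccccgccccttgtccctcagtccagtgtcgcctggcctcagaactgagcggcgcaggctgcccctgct
Egln3: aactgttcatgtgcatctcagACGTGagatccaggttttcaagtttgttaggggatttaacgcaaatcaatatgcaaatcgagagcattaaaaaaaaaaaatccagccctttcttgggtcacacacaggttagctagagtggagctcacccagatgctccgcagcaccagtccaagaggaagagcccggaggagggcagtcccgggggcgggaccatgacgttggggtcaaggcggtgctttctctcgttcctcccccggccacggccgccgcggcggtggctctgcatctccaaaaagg
Car9: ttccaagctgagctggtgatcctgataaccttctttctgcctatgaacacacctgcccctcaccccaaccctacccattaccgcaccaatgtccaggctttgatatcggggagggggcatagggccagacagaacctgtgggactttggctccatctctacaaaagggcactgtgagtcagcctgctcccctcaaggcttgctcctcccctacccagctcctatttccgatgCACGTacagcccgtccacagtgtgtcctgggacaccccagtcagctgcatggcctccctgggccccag
Bnip3 and Hk1 held 5 motif matches each in these windows, Slc2a1 and Pgk1 held 2, and Egln3 and Car9 held 1. Overlapping matches on the strands are counted apart, so CACGTG in Bnip3 and CACGCGTG in Hk1 each gave 2. Hk1 has another RefSeq start whose window held 0. A match is a run of letters and says nothing of binding in these cells.

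All 34 genes were detected in all 6 libraries and all passed the low-count filter. Levels below are CPM on the same TMM scale, and levels of different genes are compared per kilobase of exon. Aldoa, the aldolase that splits the doubly phosphorylated sugar, had the highest mean level at 467 CPM per kilobase, above 99.4% of the 14738 genes tested. Ldha followed at 355, Pgk1 at 339 and Tpi1 at 202 CPM per kilobase. The length used is the union of all annotated exons of a gene, 2244 bases for Pgk1 against 7160 for Gapdh and 13417 for Pkm. This order therefore depends on the annotation. Before division by length, Gapdh and Pkm had means of 1035 and 1059 CPM, above Pgk1 at 760 and Tpi1 at 560.5. Among the hypoxia genes Ddit4, an inhibitor of mTOR signalling that glucocorticoids also induce, was highest at 149, followed by Car9 at 74.7 and Bnip3 at 52.4 CPM per kilobase. The lowest members were Pfkfb4 at 0.656 and Pfkm at 1.69 CPM per kilobase, above 23.3% and 42.4% of the genes tested.

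**Figure D1:**
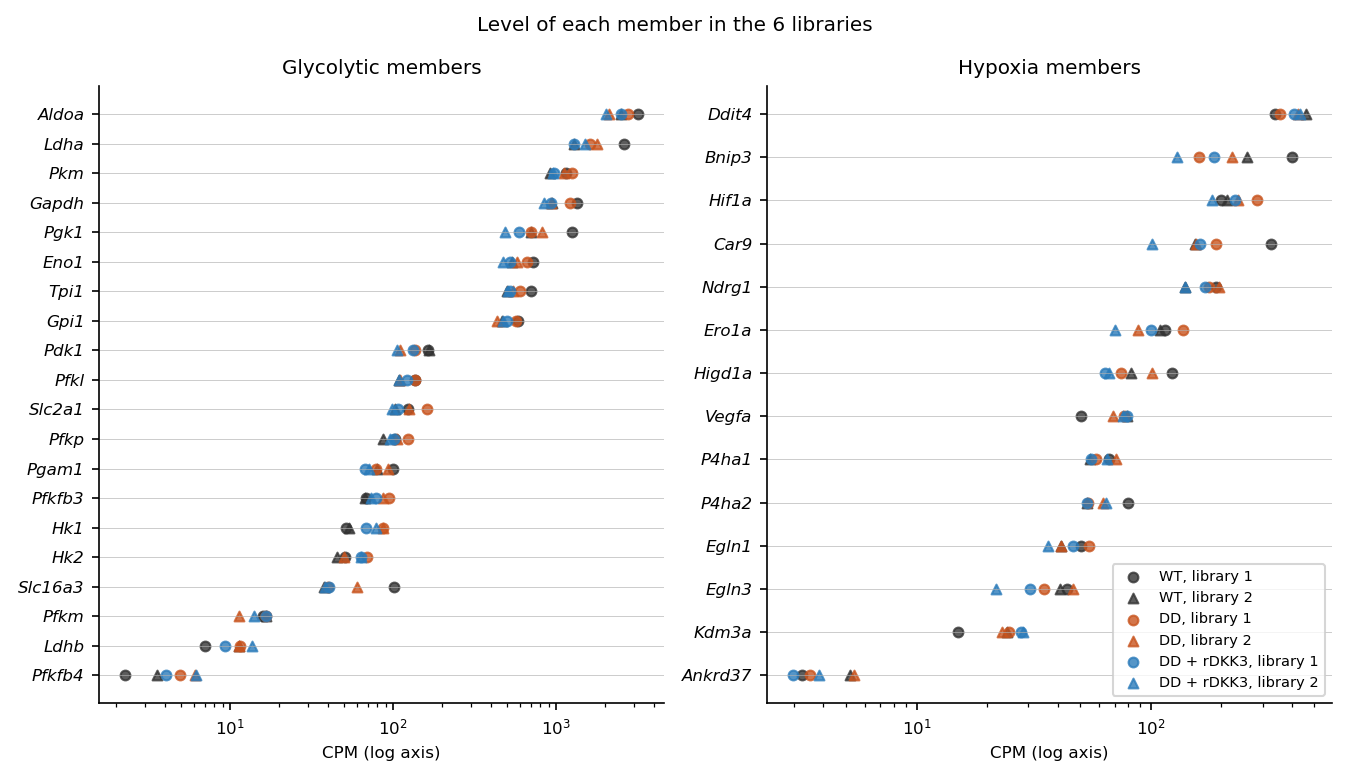
Level of each of the 20 glycolytic genes (left) and 14 hypoxia genes (right) in each library, in CPM on a log axis, ordered by mean. Colour marks the group and shape the library number. Aldoa lay between 2020 and 3199 CPM and Pfkfb4 between 2.26 and 6.13, and for Ldha, Car9 and Slc16a3 the black circle of WT 1 stands to the right of all other points.

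Paralogs divided some of these steps unevenly. Ldha, the subunit that favours lactate formation, made up 99.05% to 99.7% of Ldha plus Ldhb per kilobase, and Ldhb was lowest in WT 1 (0.281%) and 0.667% to 0.948% in the other 5 libraries. Hk1 and Hk2, the hexokinases that trap glucose as its phosphate, were nearly balanced per kilobase of union exon length (8773 and 8269 bases). Hk1 was at 48.8% and 53.04% of their sum in WT, 54.1% and 61.9% in DD, then 50.4% and 53.95% in DD + rDKK3. Hkdc1, a hexokinase-like gene described below, was outside this sum and had 82.9 to 154.6 CPM. The WT shares of Hk1 lay below both DD shares, and the DD + rDKK3 values overlapped those of WT. Of the phosphofructokinase subunits, which catalyse the committed step, the liver form Pfkl held 52.8% to 56.9%, the platelet form Pfkp 33.7% to 39.4% and the muscle form Pfkm 7.79% to 11.9%. Egln3 exceeded Egln1 per kilobase in every library, at 66.8% to 79.02% of the pair. With 2 libraries against 2, a two-sided exact permutation test of such a share cannot go below p = 0.333, so none was run.

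WT 1 differed from WT 2 by more than the groups differed for many members. The 15 enzymes summed to 12029 CPM in WT 1 and 8240 in WT 2, against 9881 and 8780 in DD, then 8277 and 7692 in DD + rDKK3. The place of WT 1 at the top depends on the TMM scaling. As a share of all counts, without it, the enzymes took 1.019% and 0.815% in WT and 1.057% and 0.92% in DD. In DD + rDKK3 they took 0.838% and 0.804%, so DD 1 was highest on that scale. WT 1 was the highest library for 13 of the 34 genes, among them 9 of the 20 glycolytic genes, and the lowest for 6. Slc16a3, the exporter of lactate, had 101.5 CPM in WT 1 and 37.6 in WT 2, 39.99 and 60.1 in DD, then 40.2 and 38.4 in DD + rDKK3. Ldha had 2606 and 1296 CPM in WT, 1605 and 1789 in DD, then 1295 and 1504 in DD + rDKK3. For both genes the WT libraries enclosed or nearly enclosed the range of the other 4. On the log2 scale WT 2 lay below WT 1 by -1.43 for Slc16a3, -1.08 for Car9, -1.01 for Ldha and -0.85 for Pgk1, and above it by 0.70 for Ldhb, 0.68 for Kdm3a, 0.66 for Vegfa and 0.64 for Pfkfb4. WT 1 was also the library with the smallest TMM factor (0.848, against 0.99 to 1.07), the largest acinar marker sum (151320 CPM, against 87556 to 114698) and, within WT, the larger macrophage sum. The part of these in the result was not tested.

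**Figure D2:**
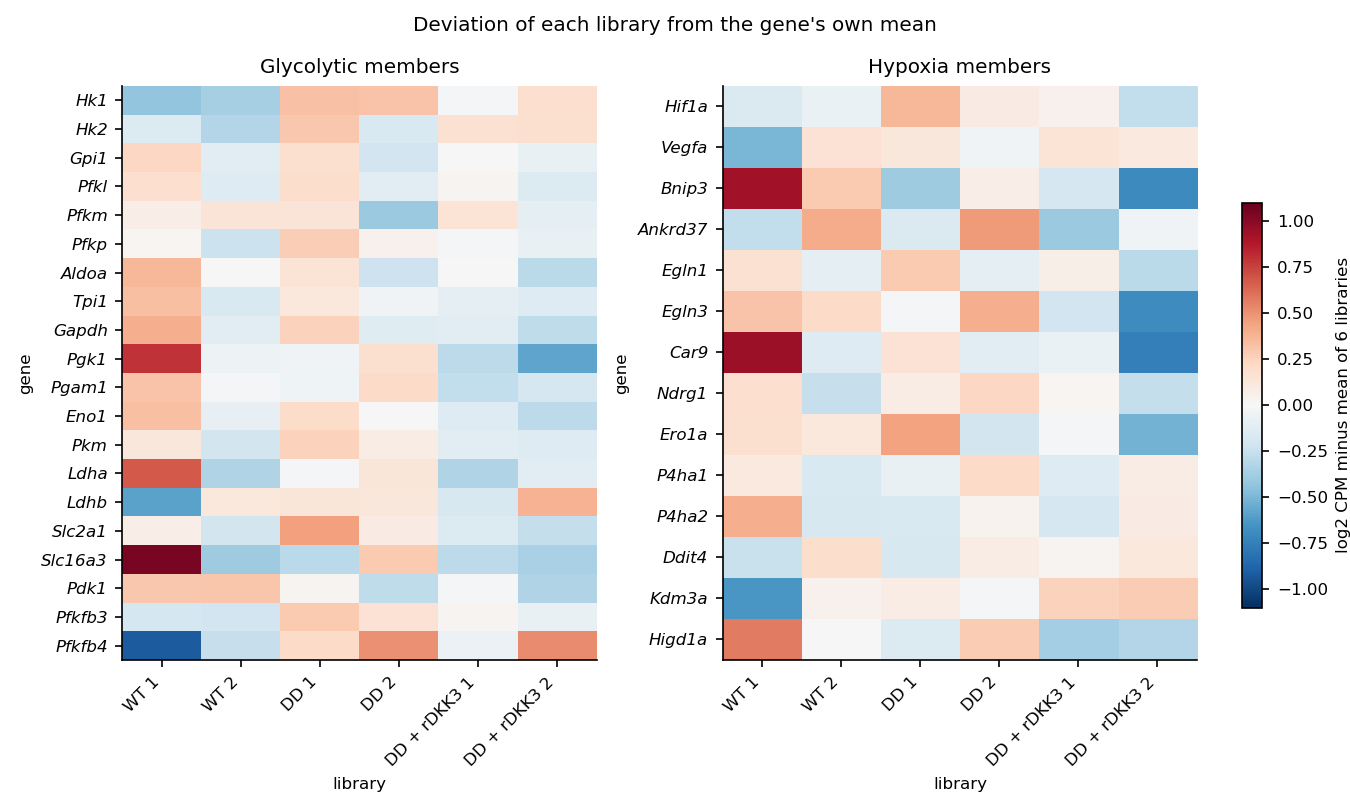
Deviation of each library from the mean of the 6 for each gene, as log2 CPM, with glycolytic genes on the left and hypoxia genes on the right. Red is above and blue below the gene's own mean. The WT 1 column holds the deepest colours, red for Slc16a3, Car9, Bnip3, Pgk1 and Ldha and blue for Pfkfb4, Kdm3a and Vegfa, and the DD + rDKK3 2 column is blue for Car9, Bnip3 and Egln3.

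At the other end, DD + rDKK3 2 was the lowest library for 14 of the 34 genes, 7 of each class, and DD 1 was the lowest for 0. The ratio of the highest to the lowest library had a median of 1.55 for the glycolytic genes and 1.71 for the hypoxia genes, beside 1.63 over all genes tested. It exceeded 2 for 7 members: Car9 (3.23), Bnip3 (3.08), Pfkfb4 (2.71), Slc16a3 (2.701), Pgk1 (2.59), Egln3 (2.14) and Ldha (2.01).

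Loss of DKK3 was examined by setting DD against WT. In the quasi-likelihood test of edgeR, adjusted over 14738 genes by the Benjamini-Hochberg method, 0 of the 34 members were called at an adjusted p under 0.05, where 0.0407% of all genes were. At an unadjusted p under 0.05 there were 4 members of 34 by edgeR, beside 8.26% of all genes. DESeq2's Wald test gave 5, beside 4.17% of 26506 genes. That share includes low-count genes that the edgeR filter removed, so it is not comparable with 8.26%. Of the 4 members by edgeR, Hk1, Pfkfb3 and Pfkfb4 were higher in DD and Bnip3 was lower. The fitted difference was positive for 17 members and negative for 17, and this split depends on the scaling: with library size alone, which moves the median of all genes to 0.22, it was 26 against 8. In 7 members both DD libraries lay above both WT libraries and in 2 they lay below, beside 18.1% and 19.7% of all genes. Without WT 1 the split was 26 positive and 8 negative with 2 members at an unadjusted p under 0.05 beside 3.97% of all genes, and without WT 2 it was 13 and 21 with 10 members beside 16.5%. In this contrast the acinar markers had a median log2 fold change of -0.36, with 11 of 14 negative, 4 at an unadjusted p under 0.05 and sums that did not overlap (99607 and 87556 CPM in DD, 151320 and 113326 in WT). The fibroblast and stellate markers had a median of 1.82, with 15 of 16 positive, 2 at an unadjusted p under 0.05 and sums that overlapped. The part of either in the members' values was not tested.

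The 3 glycolytic genes with the smallest p in DD against WT were Hk1, Pfkfb3 and Pfkfb4, and 0 of the 20 passed the adjusted test. Hk1 had 51.5 and 53.9 CPM in WT, 86.6 and 86.1 in DD, then 68.2 and 78.95 in DD + rDKK3. Its DD libraries were nearly alike and stood above the rest, and both DD + rDKK3 libraries lay between DD and WT. Hk1, like Pfkfb3 and Pfkfb4 below, was picked for its difference between DD and WT. The place of DD + rDKK3 relative to DD is not independent of that choice. DD exceeded WT 1.64-fold (log2 fold change 0.71, SE 0.149, unadjusted p = 0.00156, edgeR adjusted p = 0.442), the 48th smallest p among all genes. The call depended on the procedure: without the low-count filter the adjusted p was 0.0063, with 1.99% of all genes called, and with DESeq2 it was 0.00612, with 0.689% called.

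Pfkfb3 and Pfkfb4 encode the enzymes that make the sugar bisphosphate activating phosphofructokinase. Pfkfb3 had 67.7 and 66.8 CPM in WT, 94.5 and 86.5 in DD, then 78.96 and 73.1 in DD + rDKK3, so the 3 groups did not overlap. Its DD level was 1.35-fold the WT level (log2 fold change 0.43, SE 0.144, edgeR adjusted p = 0.586). Pfkfb4 was scarce, with 2.26 and 3.58 CPM in WT, 4.92 and 6.06 in DD, then 4.07 and 6.13 in DD + rDKK3, from 23 to 114 counts per library. Both WT libraries lay below the other 4, and the log2 fold change was 0.89 (SE 0.338, edgeR adjusted p = 0.586). Pdk1, the kinase that shuts pyruvate out of the mitochondrial dehydrogenase, had 165 and 166 CPM in WT against 136 and 110.2 in DD, then 132 and 106 in DD + rDKK3, both WT libraries above the rest.

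Slc2a1, the glucose transporter GLUT1, had 124 and 103 CPM in WT, 162 and 126 in DD, then 107 and 98.6 in DD + rDKK3. Its DD libraries lay above all others, though DD 2 and WT 1 differed by less than the WT libraries did. The log2 fold change of DD against WT was 0.34 (SE 0.187, edgeR adjusted p = 0.59). For Ldha the value was -0.20 (SE 0.315, adjusted p = 0.817), and without WT 1 it was 0.40. Pfkp and Ldhb also had no overlap between DD and WT, with log2 fold changes of 0.27 and 0.31, though for Ldhb the nearest libraries were at 11.4 CPM in both groups. The remaining glycolytic genes overlapped between the groups, with log2 fold changes from -0.47 (Slc16a3) to 0.32 (Hk2). The median over the 20 was -0.05, beside 0.02 over all genes tested.

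Among the hypoxia genes, Bnip3, a mitochondrial receptor for autophagy, differed most. It had 400.5 and 258 CPM in WT, 161 and 223 in DD, then 186 and 129.9 in DD + rDKK3. Both WT libraries were above the other 4, and DD and DD + rDKK3 overlapped. DD was 1.72-fold lower than WT (log2 fold change -0.78, SE 0.285, unadjusted p = 0.0269, edgeR adjusted p = 0.586), and without WT 1 the log2 fold change was -0.41. Without the low-count filter Bnip3 was called, with an adjusted p of 0.0262, and DESeq2 gave 0.276.

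Hif1a, the regulator itself, had 199 and 211 CPM in WT, 285 and 236 in DD, then 229.6 and 183 in DD + rDKK3. It was higher in both DD libraries than in both WT libraries, with a log2 fold change of 0.35 (SE 0.187, edgeR adjusted p = 0.59). Car9, a carbonic anhydrase of the cell surface, had 328 and 155 CPM in WT, 191 and 156 in DD, then 162 and 101 in DD + rDKK3. The DD libraries lay inside the WT range, and the log2 fold change of -0.47 (SE 0.364, edgeR adjusted p = 0.638) became 0.18 without WT 1. Vegfa, the angiogenic growth factor, had 50.2 and 79.4 CPM in WT, 77.2 and 68.9 in DD, then 78.8 and 76.3 in DD + rDKK3. WT 1 was low and the other 5 libraries lay close together, and the log2 fold change of 0.17 (SE 0.220, edgeR adjusted p = 0.772) became -0.10 without WT 1. The median over the 14 hypoxia genes was 0.03, beside 0.02 over all genes.

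**Figure D3:**
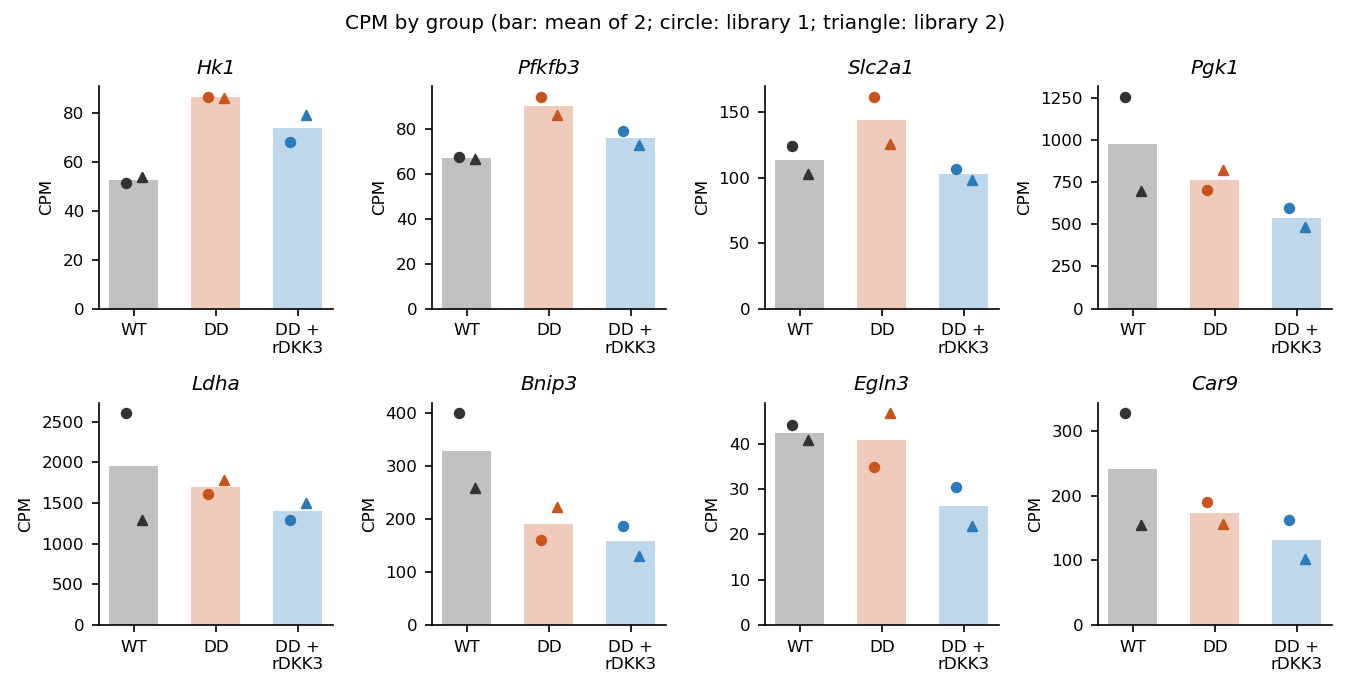
CPM of 8 members in each group, on axes that start at 0. Bars are the mean of 2 libraries, circles library 1 and triangles library 2. Hk1 and Pfkfb3 show DD above WT with DD + rDKK3 between them, Egln3 and Slc2a1 show both DD + rDKK3 libraries below both DD libraries, and Pgk1, Ldha, Bnip3 and Car9 show WT 1 above every other library.

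Supplying the missing protein to null acini was examined by setting DD + rDKK3 against DD. This comparison shares the DD libraries with DD against WT and is not independent of it. By the edgeR quasi-likelihood test, 0 of the 34 members and 0% of all genes were called at an adjusted p under 0.05. At an unadjusted p under 0.05 there were 2 members, Egln3 and Slc2a1, both lower with rDKK3, beside 1.98% of all genes. DESeq2's Wald test likewise called 0 members and gave 2 at an unadjusted p under 0.05, beside 0.936% of 26506 genes, low-count genes included. The fitted difference was negative for 27 of the 34 members and positive for 7, where it was negative for 7437 of the 14738 genes tested. The median was -0.22 over the glycolytic genes and -0.28 over the hypoxia genes, beside -0.002824 over all genes tested. In 14 members both DD + rDKK3 libraries lay below both DD libraries, beside 14.4% of all genes, and in 1 member, Kdm3a, they lay above, beside 15.1%. The negative fits numbered 26 to 28 of 34 when any 1 library was left out. The members at an unadjusted p under 0.05 numbered 0 without DD + rDKK3 2, beside 1.06% of all genes, and 1 without DD + rDKK3 1, beside 0.937%.

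Egln3, a prolyl hydroxylase that targets HIF1A and is itself induced by it, had 34.8 and 46.7 CPM in DD, 30.5 and 21.9 in DD + rDKK3, and 44.01 and 40.9 in WT. The DD + rDKK3 libraries were the lowest of the 6, and the DD libraries enclosed those of WT. It was 1.56-fold lower with rDKK3 (log2 fold change -0.64, SE 0.212, unadjusted p = 0.0177, edgeR adjusted p = 1.00). Slc2a1, whose values are given above, was 1.40-fold lower with rDKK3 (log2 fold change -0.49, SE 0.187, unadjusted p = 0.0322, edgeR adjusted p = 1.00), and the treated libraries lay inside or just below the WT range.

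Of the 15 enzymes, 0 passed the adjusted test with rDKK3. Pgk1, which makes the first ATP of the pathway, had 705 and 820.3 CPM in DD, 594.5 and 485 in DD + rDKK3, and 1258 and 699 in WT. Both treated libraries were the lowest of the 6. Pgam1, the mutase of the next step, had 77.99 and 93.4 CPM in DD, then 66.8 and 70.7 in DD + rDKK3, with a log2 fold change of -0.32 (SE 0.177, edgeR adjusted p = 1.00). Tpi1, Eno1, Pkm and Ldha also had both treated libraries below both DD libraries, with log2 fold changes of -0.16, -0.31, -0.30 and -0.28. For Ldha the SE was 0.315 (edgeR adjusted p = 1.00). Hk1 and Pfkp lay lower without overlap (-0.23 and -0.21), while Hk2, Gpi1, Pfkl and Pfkm overlapped, with values from -0.11 to 0.14. Aldoa, Gapdh and Ldhb also overlapped, at -0.11, -0.28 and 0.0029. Pfkfb3 had a log2 fold change of -0.25 (SE 0.144, edgeR adjusted p = 1.00).

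Of the hypoxia genes, Higd1a, a protein of the inner mitochondrial membrane, had 74.5 and 100.8 CPM in DD, 64.1 and 66.5 in DD + rDKK3, and 123 and 82.5 in WT. Both treated libraries were below all others, with a log2 fold change of -0.42 (SE 0.231, edgeR adjusted p = 1.00). For Hif1a the value was -0.34 (SE 0.187, adjusted p = 1.00), with treated libraries on either side of those of WT. Ndrg1, a stress-response gene, was the other member with no overlap in this direction, at -0.27. Kdm3a, a histone demethylase, had 24.7 and 23.1 CPM in DD, then 27.8 and 28.4 in DD + rDKK3, the opposite order, with a log2 fold change of 0.24. Vegfa differed by 0.09 (SE 0.219, edgeR adjusted p = 1.00). Ero1a, an oxidase of protein folding, overlapped at 137 and 88.1 CPM in DD, then 100.6 and 70.6 in DD + rDKK3. P4ha1 and P4ha2, the prolyl hydroxylases of collagen, Ddit4, Egln1 and Ankrd37 overlapped as well, with log2 fold changes from -0.39 (Ankrd37) to 0.11 (Ddit4). Of the 14 acinar markers, all 14 had positive fitted differences in this contrast with a median of 0.21 and 0 had an unadjusted p under 0.05, and the fibroblast and stellate sums overlapped (197 and 1430 CPM in DD, 331 and 1461 in DD + rDKK3). The 9 ductal markers had a median of -0.35, with 6 negative, 4 lower without overlap and 2 at an unadjusted p under 0.05 (Tspan8 and Krt7, at -1.11 and -0.50, named after their values were seen). The part of these markers in the lower glycolytic and hypoxia values was not tested.

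**Figure D4:**
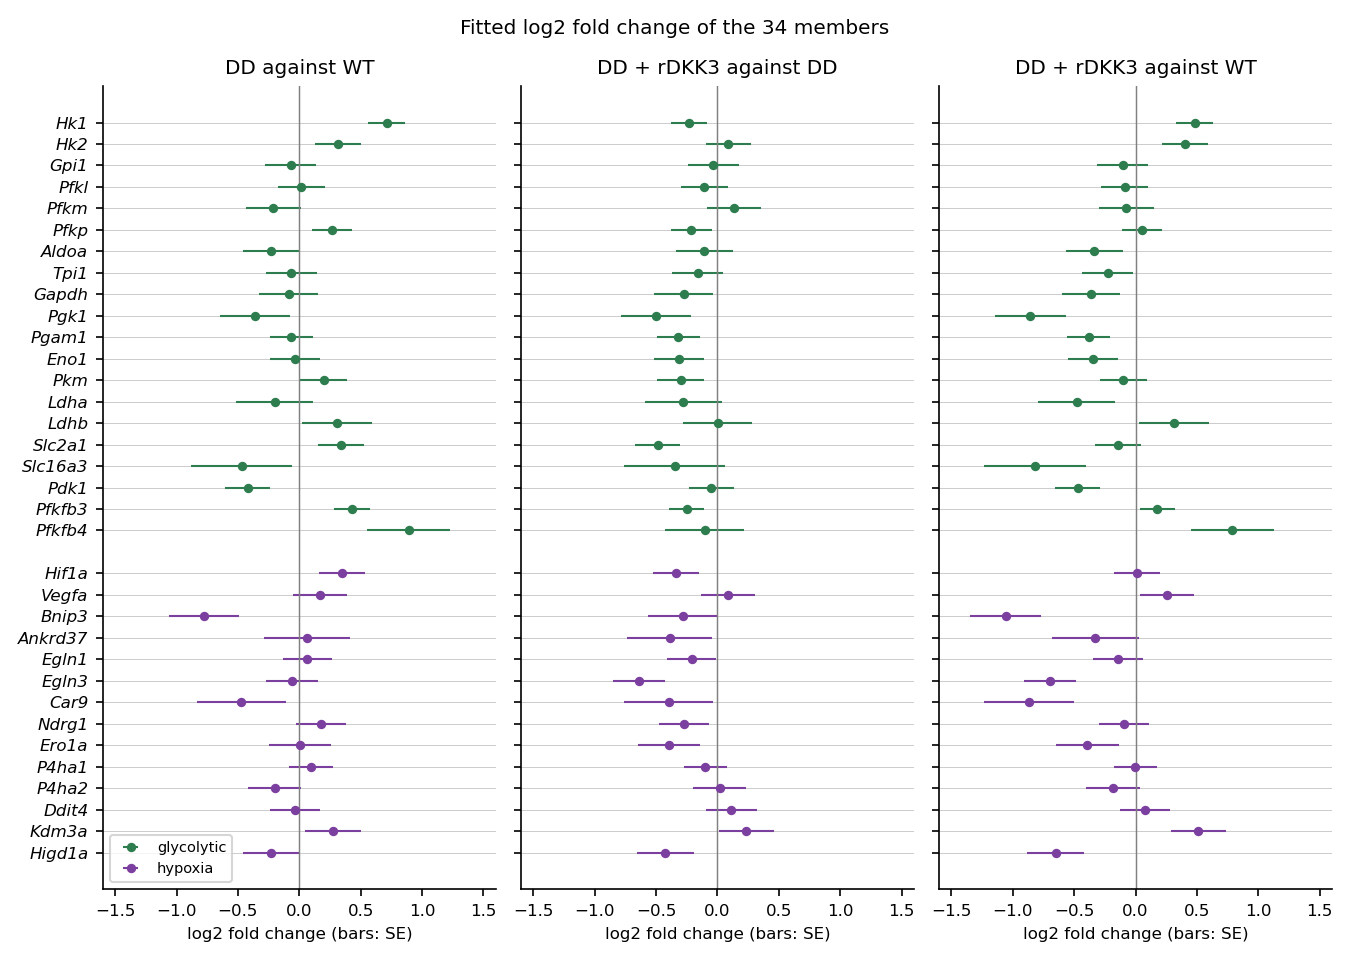
Fitted log2 fold change of each member in the 3 comparisons, with bars of 1 SE, glycolytic genes in green and hypoxia genes in purple. In DD against WT the points lie on either side of 0, with Hk1 at 0.71 and Bnip3 at -0.78. In DD + rDKK3 against DD 27 of 34 lie below 0, and in DD + rDKK3 against WT Bnip3 reaches -1.06.

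The comparison of DD + rDKK3 with WT asked how far the treated null cultures lay from WT. It shares its libraries with the comparisons above and is not independent of them. By the edgeR quasi-likelihood test 0 of the 34 members were called, beside 0.0475% of all genes. At an unadjusted p under 0.05 there were 8 members by edgeR, beside 15.3% of all genes. DESeq2's Wald test gave 6, beside 8.11% of 26506 genes, low-count genes included. Of the 8 by edgeR, Hk1 and Pfkfb4 were higher than in WT, and Pgk1, Pdk1, Bnip3, Egln3, Car9 and Higd1a were lower. Fits were negative for 24 members and positive for 10, and with library size alone for 15 and 19. In 9 members both treated libraries lay below both WT libraries and in 5 above, beside 27.1% and 27.9% of all genes. Without WT 1, the count at an unadjusted p under 0.05 was 1 member, Hk1, beside 5.31% of all genes. It was 14 without WT 2, beside 22.4%, and 0 without DD + rDKK3 2, beside 2.24%. In this contrast the acinar, ductal, and fibroblast and stellate markers had median log2 fold changes of -0.20, -0.27 and 2.05, and their part in the members' values was not tested.

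Bnip3 was 2.08-fold lower than in WT (log2 fold change -1.06, SE 0.287, unadjusted p = 0.00666, edgeR adjusted p = 0.322), the largest difference of any member in the 3 comparisons. The value was -0.69 without WT 1. It was called without the low-count filter (adjusted p = 0.000166, with 2.97% of all genes called) and by DESeq2 (adjusted p = 0.0315, with 1.24% called). Egln3 was 1.62-fold lower (log2 fold change -0.70, SE 0.213, edgeR adjusted p = 0.322) and Higd1a 1.57-fold lower (-0.65, SE 0.232, adjusted p = 0.322), and they were -0.62 and -0.32 without WT 1. Car9 had a log2 fold change of -0.87 that became -0.21 without WT 1. The median over the 14 hypoxia genes was -0.16, beside 0.02 over all genes.

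In the glycolytic class, Hk1 was above WT at 1.40-fold (log2 fold change 0.48, SE 0.148, edgeR adjusted p = 0.322), with no overlap. Pgk1 was 1.81-fold lower (log2 fold change -0.86, SE 0.288, edgeR adjusted p = 0.322) and Pdk1 1.39-fold lower (-0.47, SE 0.184, adjusted p = 0.322). Leaving out WT 1 took Pgk1 to -0.35, whereas Pdk1, whose WT libraries were alike, was -0.45. Slc2a1 differed by -0.15 (SE 0.187, edgeR adjusted p = 0.697) and Ldha by -0.48 (SE 0.315, adjusted p = 0.446), and without WT 1 these were 0.01 and 0.13. Hif1a differed by 0.01 (SE 0.187, edgeR adjusted p = 0.977) and Vegfa by 0.26 (SE 0.220, adjusted p = 0.55). Without the low-count filter Pgk1, Slc16a3, Bnip3, Egln3 and Car9 passed the adjusted threshold. The median over the 20 glycolytic genes was -0.13 and turned to 0.07 without WT 1.

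Processed pseudogenes that match several of the enzymes also hold counts, while Aldoa, the most abundant member, had 0 matched. Annotated pseudogenes at 95% identity or more over 80% or more of their length numbered 84 for Gapdh, 4 each for Pgk1 and Eno1, and 2 for Ldha. Those of Gapdh held 2.29% to 2.91% of the summed counts, and those of Pgk1 at most 0.319%. Adding them to the parent genes changed no count of members called or passing an unadjusted p under 0.05.

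Other genes of the pathways, from lists of relatives, gave 0 genes called at an adjusted p under 0.05 by edgeR in each of the 3 comparisons. Counts at an unadjusted p under 0.05 stand beside 8.26% of all genes in DD against WT, 1.98% in DD + rDKK3 against DD and 15.3% in DD + rDKK3 against WT. Of 18 tested glycolytic relatives, 7 had an unadjusted p under 0.05 in DD against WT, 5 higher and 2 lower, with a median of 0.38. The counts were 0 in DD + rDKK3 against DD and 3 in DD + rDKK3 against WT. Those of the first comparison included Hkdc1, a hexokinase-like gene of the epithelium, at 82.9 and 89.1 CPM in WT, 153 and 113 in DD, then 116 and 155 in DD + rDKK3, whose WT libraries were the lowest. Of 12 genes of pyruvate entry into mitochondria, 0 had an unadjusted p under 0.05 in DD against WT, 0 in DD + rDKK3 against DD and 1 in DD + rDKK3 against WT. Of 5 tested gluconeogenic genes, 1, 0 and 1 did in the same order, and of 9 tested HIF pathway genes 0, 0 and 3, all 3 higher. The medians in that order were 0.01, -0.06 and -0.07 for pyruvate entry, -0.004765, -0.01 and -0.24 for gluconeogenesis, and 0.23, 0.03 and 0.35 for the HIF pathway. Hkdc1, and Bnip3l, Hilpda and Lox below, were singled out after their values were seen.

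Among 31 tested further hypoxia targets, 3 had an unadjusted p under 0.05 in DD against WT (1 higher, 2 lower), 3 in DD + rDKK3 against DD (all lower) and 6 in DD + rDKK3 against WT (1 higher, 5 lower), with medians of 0.04, -0.22 and -0.06. Bnip3l, the paralog of Bnip3, had 139 and 118 CPM in WT, 80.2 and 106 in DD, then 86.4 and 73.1 in DD + rDKK3, with both WT libraries above the rest. Hilpda, a lipid droplet protein induced by hypoxia, had 186 and 98.3 CPM in WT, 99 and 118 in DD, then 79.1 and 46.3 in DD + rDKK3, lowest in both treated libraries. Lox, an enzyme that cross-links collagen, was highest in the same libraries as the fibroblast and stellate markers, at 188 CPM in DD 2 and 226 in DD + rDKK3 2 against 13.4 to 65.1 in the other 4 libraries. Marker sums ranged over 1952 to 3013 CPM for duct cells, 107 to 187 for endothelial cells, 152 to 284 for islet cells and 66.96 to 186 for adipocytes, and red cell transcripts were near 0 (at most 0.393 CPM over 5 genes, with 3 or 4 of the 5 at 0 in each library).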

How the data were processed

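RNA of primary acini on day 3 of the ADM assay was sequenced in 6 libraries, 2 per group. Per the methods of the study, the authors prepared directional (dUTP) libraries, aligned paired-end reads with STAR to GRCm39 and counted reads per gene of the GENCODE M32 annotation with strand taken into account and secondary alignments ignored. The submitters' processing notes name STAR 2.7.9a, Picard 2.19.2, R 4.2.2 and DESeq2 1.38.0. The deposited table holds raw counts for 57045 rows. Its 92 spike-in rows were all 0 and were left out. No column of the authors' own comparisons was used.

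Genes were kept by filterByExpr (minimum count 10, minimum total 15), which left 14738 genes and all 34 members. Counts were scaled by TMM and fitted with edgeR 4.0.16 (quasi-likelihood test, 3 groups, R 4.3.3), with p-values adjusted over all genes tested by the Benjamini-Hochberg method. The SE is the log2 fold change divided by the square root of its F statistic. Alternatives were DESeq2 1.42.0, its size factors, library size alone, no filter, a replicate block, each library left out in turn, and matched pseudogene counts added. DESeq2 was run on 26506 genes without this filter, and its shares of genes called are over those it gave an adjusted p. Levels per kilobase used the union of all exons of a gene in the later GENCODE M39 annotation, matched for all 35 member rows. Fold changes with SE and adjusted p are given for any member called, for the 3 members of each class with the smallest p in each comparison, and in every comparison for Slc2a1, Ldha, Hif1a and Vegfa, chosen for their role. The members and lists were chosen with earlier results of these data known.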

Additional observations from a re-analysis of the deposited data

How the results depend on the processing

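With each library left out in turn, the medians over the members moved. In DD against WT the glycolytic median ran from -0.19 to 0.21 and the hypoxia median from -0.11 to 0.11. In DD + rDKK3 against DD the hypoxia median ran from -0.41 to -0.12. In DD + rDKK3 against WT the glycolytic median ran from -0.27 to 0.073 and the hypoxia median from -0.28 to -0.061. With library size alone the glycolytic and hypoxia medians were 0.18 and 0.23 in DD against WT and 0.04998 and 0.015 in DD + rDKK3 against WT, where the medians of all genes were 0.22 and 0.18. Without the low-count filter, which takes 26506 genes into the fit, the members called were 1 glycolytic and 1 hypoxia gene in DD against WT and 2 and 3 in DD + rDKK3 against WT. DESeq2 called 1 glycolytic gene in DD against WT and 1 hypoxia gene in DD + rDKK3 against WT. The cause of these differences was not tested.

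The log2 fold change of each named gene in each comparison was set against the main fit under every alternative. Of these entries, 333 kept their direction and side of the threshold, 7 passed it and 11 turned sign. The entries are not independent, and no named gene passed the threshold in the main fit. With library size alone, Ldha was 0.042 in DD against WT and Slc2a1 0.028 in DD + rDKK3 against WT. With each library left out in turn, DD against WT ran from -0.61 to 0.40 for Ldha, -0.10 to 0.55 for Vegfa and -0.91 to 0.18 for Car9, with the turned sign without WT 1 in each. DD + rDKK3 against WT ran over -0.27 to 0.014 for Slc2a1, -0.89 to 0.13 for Ldha, -0.16 to 0.17 for Hif1a and -0.015 to 0.63 for Vegfa, with the turned sign without WT 1 in each, and for Hif1a (-0.011 without WT 1) also without DD + rDKK3 1.

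The labels number the libraries 1 and 2 in every group. Each treated null culture is titled DD1 or DD2 like its untreated counterpart, with only rDKK3 added. Such titles could mark paired cultures, but the labelled ages differ (12 and 13 weeks in DD, 14 and 15 in DD + rDKK3). No label states that an animal was shared, so the main fit was unpaired. Same-numbered deviations correlated over all genes at -0.39 for WT and DD, -0.25 for WT and DD + rDKK3, and 0.65 for DD and DD + rDKK3. Over the 34 members the correlations were -0.09, 0.42 and 0.38 in that order. With a replicate block 0 members were called in each comparison, 5, 2 and 8 had an unadjusted p under 0.05 (beside 7.51%, 1.68% and 12.97% of all genes), and Hif1a in DD + rDKK3 against WT was -0.0005092. A replicate block within the Dkk3-null libraries, chosen after seeing the data, called 0 members and gave 5, 3 and 8 (beside 9.31%, 2.88% and 17.5%). Between same-numbered DD + rDKK3 and DD libraries 23 members were lower in both pairs, 4 higher in both and 7 differed in sign. Counts of 2 libraries of a group differed by 21.5 to 61.1 times counting noise (chi-square per degree of freedom).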
